A study of Mus musculus with 12 samples.

Results

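The 4 myogenic regulatory factors Myf5, Myod1, Myog and Myf6 and the paired box genes Pax7 and Pax3 were followed in the tibialis anterior, a fast-twitch hindlimb muscle, of 12 mice. They were taken from the deposited files by gene symbol, and all 6 were found among the 23923 genes analysed. The 6 control mice carried Myf6 cre/+ with Smyd1 flox/+, and the 6 mice labelled Smyd1 CKO (conditional knockout) carried Myf6 cre/+ with Smyd1 flox/-. All 12 were 6 weeks old, were labelled with the strain C57BL6/J;129S1/SvImJ and gave 1 RNA library each. By the methods of the study, all of them also carried 1 Rosa26 reporter allele for YFP. The study states that its experiments reported after fiber size used only male tissue, and the RNA sequencing is among those. The Cre sits in the untranslated end of Myf6, one of the 6 genes, on 1 allele in both groups, so Myf6 was measured only in mice with a modified allele, and no group had 2 unmodified copies. This Cre acts in myofibers, from around birth.

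The 4 myogenic regulatory factors are basic helix-loop-helix transcription factors. They pair with E proteins and bind E-boxes in the control regions of muscle genes. Pax7 marks satellite cells, the stem cells that lie against adult myofibers, and Pax3 acts in the muscle progenitors of the embryo. Myf5 and Myod1 commit cells to the muscle lineage and are switched on when satellite cells are activated, Myog drives differentiation and fusion, and Myf6 is the factor kept at a high level in mature fibers. In adult muscle, Myod1 is known to be favored in fast fibers and Myog in slow fibers, and Myog is switched on when a muscle loses its nerve.

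Levels are given in FPKM, the number of fragments scaled by transcript length and by the mapped fragments of the library. Promoters are shown for Myog, Myf5 and Pax7, the 3 of the 6 genes that were in a RefSeq table of promoters and also the 3 with the largest differences between the groups in the test below. Each runs from 250 bases before the transcription start to 50 after it, 5′ to 3′ on the coding strand, build GRCm38.p6. The FPKM themselves were made on mm9, and no position was carried between the builds. Capitals mark E-boxes (CANNTG), the MEF3 motif (TCAGGTT, read by sine oculis-related factors) and the MEF2 motif, each searched on both strands, and no marked sites overlap.
Myog, chr1:134289754-134290053, plus strand: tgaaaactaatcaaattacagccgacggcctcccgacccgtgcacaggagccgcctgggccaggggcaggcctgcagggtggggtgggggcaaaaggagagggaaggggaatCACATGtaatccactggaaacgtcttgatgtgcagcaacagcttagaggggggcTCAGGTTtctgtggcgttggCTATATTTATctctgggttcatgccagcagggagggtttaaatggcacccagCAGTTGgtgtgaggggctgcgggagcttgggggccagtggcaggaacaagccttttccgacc
Myf5, chr10:107486085-107486384, minus strand: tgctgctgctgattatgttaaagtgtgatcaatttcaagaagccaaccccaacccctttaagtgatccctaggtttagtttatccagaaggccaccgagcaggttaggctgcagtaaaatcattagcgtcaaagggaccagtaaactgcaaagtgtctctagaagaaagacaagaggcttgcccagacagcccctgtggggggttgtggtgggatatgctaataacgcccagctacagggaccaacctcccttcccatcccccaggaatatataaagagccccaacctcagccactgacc
Pax7, chr4:139832919-139833218, minus strand: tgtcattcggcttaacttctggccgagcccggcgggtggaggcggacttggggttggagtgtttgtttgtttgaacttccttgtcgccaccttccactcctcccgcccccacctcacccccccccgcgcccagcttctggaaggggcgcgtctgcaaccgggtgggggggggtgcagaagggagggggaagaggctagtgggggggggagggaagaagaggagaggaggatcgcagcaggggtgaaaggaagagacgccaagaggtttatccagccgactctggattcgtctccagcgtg
The Myog promoter held 2 E-boxes, starting at bases -138 and -12 from the transcription start, 1 MEF3 motif at -84 and 1 MEF2 motif at -64. No match to the 3 motifs lay in the windows of Myf5 or Pax7. Of 32851 promoters of the same length, 72.3% held an E-box, 4.07% the MEF3 motif and 7.66% the MEF2 motif. The Pax7 window was rich in CpG, with 17 CpG and 63.7% GC, against 3 CpG and 49.7% in Myf5 and a median of 7 CpG and 52.7% over all promoters. These matches describe the letters only and do not show binding in this muscle.

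The smallest steps in FPKM gave the depth of each library relative to control 1, which ran from 0.984 to 1.77 (control median 1.19, CKO median 1.24). Smyd1 was 32.9 to 47.1 FPKM in controls and 27.8 to 39.9 FPKM in mice labelled CKO (log2 fold change -0.13, standard error 0.12, limma adjusted P = 0.545). One FPKM for the whole gene does not isolate the floxed part, so the deletion could not be checked here, and CKO below means the label. The 8 fast fiber genes summed to 16260 to 23380 FPKM in the 12 libraries, as the label of the tissue calls for. At an unadjusted P below 0.05 in limma, 3 of the 8 passed as higher and 0 as lower, beside 18.1% and 1.76% of all genes. After median-ratio scaling, which sets the median gene equal across libraries, 3 passed as higher and 4 as lower, beside 6.62% and 7.44%. Control 1 stood apart in connective tissue and macrophage genes, with 663 summed FPKM over 5 mesenchymal genes against 174 to 220 in the other controls, and 20.6 over 5 macrophage genes against 6.06 to 8.73. CKO 1, CKO 3 and CKO 6 stood apart in slow fiber genes. Their 8 slow fiber genes summed to 155, 93.0 and 322 FPKM, against 22.1 to 57.6 in controls and 30.3 to 40.9 in the other CKOs. Of the 8, 7 were higher unadjusted and 0 adjusted, beside 18.1% and 2.02% of all genes. These 3 mice were singled out by these genes, so the slow fiber genes are not tested without them. Pax7, Myf5, Myog, Myod1 and the lists by role and of other cells are also given without these 3 CKOs, and Pax7, Myf5, Myog and Myf6 without control 1.

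In control muscle the factors formed a steep ladder, with Myf6 at the top and Pax3 at the bottom. FPKM are per length of transcript, so levels of different genes can be set side by side. Myf6 was 13.6 ± 5.20 FPKM (SD, n = 6), Myod1 5.28 ± 2.97, Myog 1.79 ± 1.06, Myf5 0.386 ± 0.233, Pax7 0.228 ± 0.115 and Pax3 0.0560 ± 0.0331. Myf6 exceeded Myod1, Myod1 exceeded Myog and Myog exceeded Myf5 in 6 of 6 controls (paired exact permutation tests, P = 0.0313, the smallest that 6 mice allow, adjusted P = 0.0446 over 10 pairs of neighbours). Myf5 and Pax7 could not be ordered, with Myf5 higher in 5 of 6 controls (exact P = 0.188, adjusted P = 0.208), nor could Pax7 and Pax3 (exact P = 0.0625, adjusted P = 0.0781). The order of the means was the same in the CKO, but there the neighbours that could not be ordered were Myod1 and Myog, with Myod1 higher in 4 of 6 mice (exact P = 0.344, adjusted P = 0.344). The other 4 pairs of neighbours in the CKO were ordered in 6 of 6 mice (exact P = 0.0313, adjusted P = 0.0446).

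The steps of the FPKM also show how few fragments stand behind the lower rungs. For 71 of the 72 values of the 6 genes, FPKM times relative depth was a whole multiple of 1 unit for the gene, within 0.01 of a unit, and the smallest whole numbers that fit are given as fragments. Myf6 rested on 154 to 515 fragments a mouse, Myod1 on 39 to 247, Myog on 12 to 173, Myf5 on 3 to 34, Pax7 on 3 to 43 and Pax3 on 0 to 11. The exception was Pax3 in CKO 1, at 4.36 units. A value of 3 fragments, as for Pax7 in control 1 and Myf5 in control 2, has a 95% exact Poisson interval of 0.619 to 8.77 fragments, which covers counting error only. Pax3 had 0 fragments in CKO 4, where the interval reaches 3.69.

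**Figure D1:**
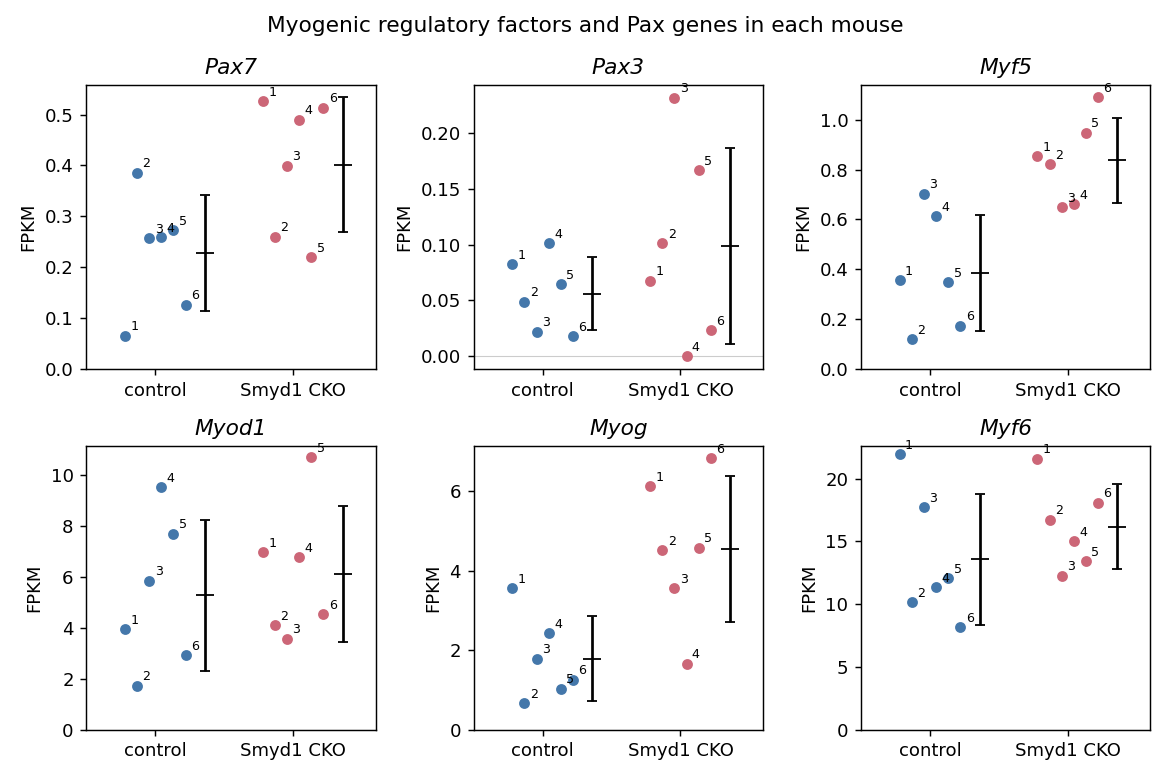
FPKM of each gene in each mouse (vertical axes, each starting at or just below 0), with the number of the mouse beside its point and the mean ± SD of each group (n = 6) as a black bar. For Myf5, Myog and Pax7 4 of 6 CKOs lie above the highest control, for Pax3 3, for Myod1 1 and for Myf6 0.

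Across the 6 genes, Myog and Myf5 showed the largest differences between CKO and control, Pax7 a smaller one, and Myod1 and Myf6 small ones within the spread of the mice. At an unadjusted P below 0.05 in limma, 3 of the 5 genes tested were higher in the CKO and 0 were lower, where 18.1% of all 12695 genes tested were higher and 1.76% lower. None of the 5 passed an adjusted P of 0.05, which 2.02% of all genes passed as higher and 0.268% as lower. After median-ratio scaling 2 of the 5 were higher and 0 lower unadjusted, against 6.62% and 7.44% of all genes. For 0 of the 5 did all CKOs lie above all controls, as they did for 2.23% of all genes, and for 0 did all lie below, as for 0.189%. Pax3 stayed below the filter of at least 0.1 FPKM in at least 6 mice, which it reached in 4. The number of all genes higher at the adjusted threshold, 257, itself moved when 1 mouse was left out, from 88 without CKO 1 to 1075 without control 1. All 5 log2 fold changes were positive, as were 77.9% of those of all genes, whose median was 0.18. In whole muscle, more cells of a type and more RNA per cell cannot be told apart.

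Pax7, the satellite cell marker, ran from 0.0649 to 0.386 FPKM in controls (median 0.258) and from 0.220 to 0.526 FPKM in CKOs (median 0.445). CKOs 1, 3, 4 and 6 lay above every control, and CKO 2 and CKO 5 lay among the controls. The low end of the controls was control 1, with 3 fragments. The log2 fold change was 0.65 (standard error 0.28, limma adjusted P = 0.21, exact permutation P = 0.0433), a fold of 1.04 to 2.37 by the 95% interval. After median-ratio scaling it was 0.50 (limma adjusted P = 0.476), without control 1 0.47 (0.228) and without CKO 1, 3 and 6 0.40 (0.762), and in none of these did Pax7 pass the unadjusted threshold. With a pseudocount of 1 in place of 0.1 the log2 fold change was 0.19. Pax7 also missed the unadjusted threshold without control 6 alone (0.56), CKO 1 alone (0.58) or any of CKOs 3, 4 and 6 alone.

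Pax3, the progenitor gene, was 0.0178 to 0.101 FPKM in controls and 0 to 0.232 FPKM in CKOs. The highest values were CKO 3 and CKO 5, at 11 and 6 fragments, and the lowest was CKO 4, so the CKO range enclosed the control range. The groups differed by 0.25 on the log2(FPKM + 0.1) scale (exact permutation test, two-sided, P = 0.403), and no difference was detectable at this depth.

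Myf5, which with Myod1 commits cells to muscle, ran from 0.119 to 0.704 FPKM in controls (median 0.352) and from 0.649 to 1.09 FPKM in CKOs (median 0.838). All controls but control 3 lay below every CKO, and control 3, at 20 fragments, reached into the CKO range. The coefficient of variation was 20.3% in CKOs, on 19 to 34 fragments, and 60.5% in controls, on 3 to 20 fragments. The part of counting error in this contrast was not tested. The log2 fold change was 1.08 (standard error 0.29, limma adjusted P = 0.0654), a fold of 1.37 to 3.25 by the 95% interval. An exact permutation test over mice gave P = 0.00866. With a pseudocount of 1 in place of 0.1 the log2 fold change was 0.42 (limma adjusted P = 0.0512). After median-ratio scaling it was 0.93 (limma adjusted P = 0.127). With 1 mouse left out, the limma adjusted P ran from 0.0367 without control 3 to 0.143 without CKO 1. Besides control 3, it was below 0.05 only without control 1 (log2 fold change 1.09, limma adjusted P = 0.0425), where more genes passed in general. Without CKO 1, 3 and 6 it was as large, at 1.04 (limma adjusted P = 0.51).

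Myod1, the other commitment factor, varied widely inside both groups. It ran from 1.73 to 9.52 FPKM in controls (median 4.90) and from 3.57 to 10.7 FPKM in CKOs (median 5.65), on at least 39 fragments in every mouse. Controls 4 and 5 each lay above 5 of the 6 CKOs, and CKO 5 was the only CKO above the highest control. The log2 fold change was 0.32 (standard error 0.36, limma adjusted P = 0.645), and its 95% interval ran from a fold of 0.729 to 2.13.

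Myog, the differentiation factor, ran from 0.668 to 3.56 FPKM in controls (median 1.52) and from 1.66 to 6.83 FPKM in CKOs (median 4.54). CKOs 1, 2, 5 and 6 lay above every control, CKO 3 lay level with control 1, the highest control, and CKO 4 lay among the controls at 1.66 FPKM on 41 fragments. The log2 fold change of 1.36 was the largest of the 6 genes (standard error 0.37, limma adjusted P = 0.0658), a fold of 1.49 to 4.44 by the 95% interval, and the exact permutation test gave P = 0.0195. After median-ratio scaling it was 1.19 (limma adjusted P = 0.107). With 1 mouse left out, the limma adjusted P ran from 0.0135 without control 1, where more genes passed in general, to 0.163 without CKO 1. Besides control 1, it was below 0.05 only without CKO 4 (log2 fold change 1.62, limma adjusted P = 0.0248).

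Myf6, the factor of mature fibers and the locus of the Cre, ran from 8.18 to 21.9 FPKM in controls (median 11.7) and from 12.3 to 21.6 FPKM in CKOs (median 15.9). The highest mouse of all was control 1, and 4 controls lay below every CKO. The log2 fold change was 0.31 (standard error 0.21, limma adjusted P = 0.423), with a 95% interval from a fold of 0.905 to 1.69. After median-ratio scaling it was 0.12, and was 0.46 without control 1 (limma adjusted P = 0.112).

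**Figure D2:**
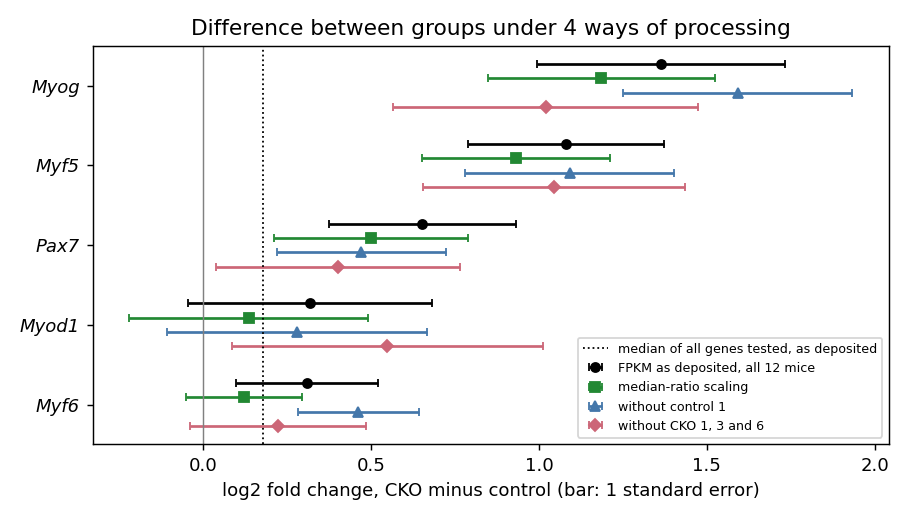
Log2 fold change of each tested gene, CKO minus control (horizontal axis, bars of 1 standard error), for the FPKM as deposited, after median-ratio scaling, without control 1 and without CKO 1, 3 and 6. The dotted line is the median of all genes tested, 0.18, and Myog and Myf5 lie to its right under all 4 ways of processing, from 1.02 to 1.59 and from 0.93 to 1.09.

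Ratios between members within a mouse were compared next, because the scaling of a library largely cancels in a ratio. Myog reached 0.110 to 0.378 of the Myf6 FPKM in CKOs and 0.0657 to 0.213 in controls. All CKOs but CKO 4 were above every control. In log2 units Myf6 over Myog was 2.97 ± 0.60 in controls and 1.91 ± 0.61 in CKOs (SD, n = 6, exact permutation test, P = 0.0216, adjusted P = 0.162 over 15 pairs). Myf6 over Myf5 was 4.88 ± 0.62 and 4.11 ± 0.29 (exact permutation P = 0.0238, adjusted P = 0.162), a difference of -0.77 that was -0.13 with a pseudocount of 1 (exact permutation P = 0.556). Myog against Myod1 ran from 0.134 to 0.904 in controls and from 0.245 to 1.51 in CKOs, and Myod1 over Myog differed by -1.05 log2 units (exact permutation P = 0.0887, adjusted P = 0.222). Myf6 over Myod1 was 1.48 ± 0.91 in controls and 1.47 ± 0.64 in CKOs (exact permutation P = 0.991). None of the 15 ratios passed the adjusted threshold, and 4 passed unadjusted. A difference between Myog and Myod1 in their response was therefore not shown.

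Seen as a composition, the summed FPKM of the 4 myogenic regulatory factors ran from 12.5 to 29.8 in controls and was 27.7 ± 5.43 in CKOs (SD, n = 6). Myf6 made up 65.3% ± 11.7 of this sum in controls and 58.8% ± 6.80 in CKOs, and Myod1 13.2% to 39.8% and 14.8% to 36.1%. The share of Myog was 8.19% ± 2.92 in controls and 16.1% ± 5.10 in CKOs, and that of Myf5 1.74% ± 0.734 and 3.05% ± 0.413. Myf6 was thus the most abundant factor in both groups.

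Myog was highest in CKO 6 and CKO 1, the libraries with the most slow fiber RNA. It was 6.12 FPKM in CKO 1, 3.56 in CKO 3 and 6.83 in CKO 6, against 4.51, 1.66 and 4.57 FPKM in CKOs 2, 4 and 5, whose slow fiber sums lay within the control range. Myl3 held much of that sum in controls, at 22 FPKM. In CKOs 2, 4 and 5 together 7 of the 8 slow fiber genes had a positive log2 fold change, as did 73.07% of all genes. Their median was 0.36 against 0.14 over all genes. These values are a description only, since the 3 mice left out were singled out by these genes. CKO 2 and CKO 5 thus lay above all controls for Myog with slow fiber sums of 30.3 and 37.4 FPKM. Without CKO 1, 3 and 6 the log2 fold change of Myog was 1.02 (standard error 0.45, limma adjusted P = 0.595), with 6 controls against 3 CKOs. Myod1 was 6.97, 3.57 and 4.52 FPKM in CKOs 1, 3 and 6, and without them its log2 fold change was 0.55 (limma adjusted P = 0.747). The part of fiber type in these differences was not tested.

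**Figure D3:**
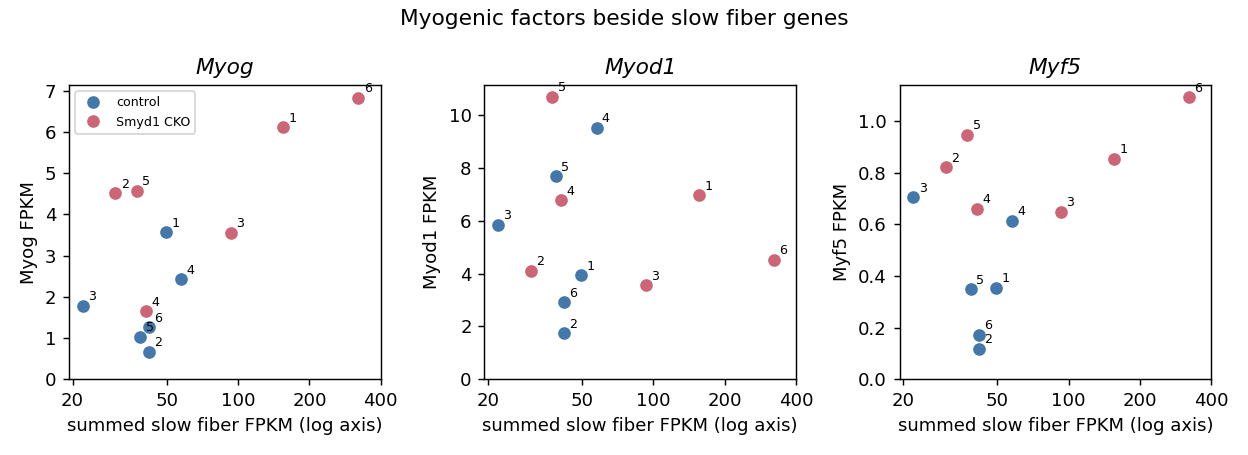
FPKM of Myog, Myod1 and Myf5 in each mouse (vertical axes) against the summed FPKM of 8 slow fiber genes (horizontal log axis), with the number of the mouse beside its point. CKO 1, 3 and 6 lie to the right of all controls, and CKO 2 and CKO 5 lie above all controls for Myog and Myf5 at slow fiber sums within the control range.

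Among mice of one genotype, the highest correlations of Myf5 were with Myod1 and with Myog, and neither passed adjustment. Deviations from the group mean of log2(FPKM + 0.1) were correlated over the 12 mice for all 15 pairs. The FPKM were as deposited, so library scaling is shared by both genes of a pair, and its part in r was not tested. For Myf5 and Myod1, r was 0.72 and rho 0.75 (permutation P = 0.0273 and P = 0.0151, adjusted P = 0.263 and 0.114), and without the 2 mice farthest out r was 0.62. Within controls r was 0.86 and within CKOs 0.25, and the difference between these was not tested. For Myf5 and Myog, r was 0.63 and rho 0.76 (permutation P = 0.0432 and P = 0.0135, adjusted P = 0.263 and 0.114), with r = 0.57 without the 2 mice farthest out. For Pax7 and Myf5, r was -0.04 and rho -0.13 (permutation P = 0.93 and P = 0.727, adjusted P = 0.93 and 0.856). None of the 15 pairs passed an adjusted P of 0.05.

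Of 7969 genes with a mean of at least 1 FPKM, those whose log2 values followed each member most closely over the 12 mice were listed as a description, since the mice share their library scaling. For Myog they were Fam115a (r = 0.972), Glg1 (0.935) and Tmem43 (0.930), and for Pax7 Etl4 (0.906), Chrne (0.893) and Fry (0.882). Chrne encodes the adult epsilon subunit of the acetylcholine receptor and was 1.16 FPKM in controls and 2.55 FPKM in CKOs (log2 fold change 1.10, limma adjusted P = 0.0303). Tmem43, a protein of the inner nuclear membrane, was 3.24 and 5.78 FPKM (log2 fold change 0.86, limma adjusted P = 0.0192). For Myf5 they were Senp2, Sart3 and Mospd2 (r from 0.931 to 0.944), for Myod1 Sun2, Kbtbd12 and Lrrc38 (0.894 to 0.907), and for Myf6 Ccdc90b, Parp12 and Trub2 (0.938 to 0.948). Taken over the deviations from the group means, r was between 0.817 and 0.958 for the 15 genes. They were picked by r over the same mice, so this is no separate check.

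Around the members, genes known to be switched on during muscle differentiation were read first. Of 15 such genes tested, 11 passed the unadjusted threshold as higher, 0 as lower, and 5 passed the adjusted one as higher, with a median log2 fold change of 0.57 against 0.18 over all genes. Of all genes 18.1% were higher unadjusted and 2.02% adjusted. The 5 were Mybph, Chrnd, Chrna1, Myh3 and Rb1. Mybph, a thick filament protein gene, was 9.12 ± 4.39 FPKM in controls and 31.0 ± 8.65 FPKM in CKOs (SD, n = 6, limma adjusted P = 0.00251). Chrnd, an acetylcholine receptor subunit, was 0.169 ± 0.0636 and 0.503 ± 0.0948 FPKM (SD, n = 6, limma adjusted P = 0.00721), and both genes had 6 of 6 CKOs above every control. Chrna1 was 1.26 ± 0.331 and 2.27 ± 0.511 FPKM (SD, n = 6, limma adjusted P = 0.0331). The fusion gene Tmem8c (myomaker), at 0.192 FPKM in controls and 0.112 in CKOs, did not pass (limma adjusted P = 0.742), and the fusion gene Gm7325 (myomixer) was below the filter. After median-ratio scaling 7 were higher and 1 lower unadjusted and 2 passed the adjusted threshold, where 6.62% of all genes were higher and 7.44% lower unadjusted. Without CKO 1, 3 and 6, 5 of 14 were higher unadjusted and 0 adjusted, where 855 of all 12176 genes were higher unadjusted and 4 adjusted.

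Other satellite cell genes gave a mixed picture beside Pax7. Of 15 tested, 5 passed unadjusted as higher, 0 as lower, and 1 passed the adjusted threshold, with a median log2 fold change of 0.29, beside 18.1%, 1.76% and 2.02% of all genes and their median of 0.18. That one was Itga7, the integrin alpha 7 chain, which myofibers express as well, at 4.58 ± 1.39 FPKM in controls and 9.38 ± 2.43 FPKM in CKOs (SD, n = 6, limma adjusted P = 0.0149), with 6 of 6 CKOs above every control. Vcam1 was 0.987 ± 0.556 and 1.85 ± 0.485 FPKM (SD, n = 6, limma adjusted P = 0.0669), and Calcr, the calcitonin receptor of quiescent satellite cells, 0.122 ± 0.134 and 0.263 ± 0.0663 FPKM (SD, n = 6, limma adjusted P = 0.145). The median-ratio scaling left 3 of the 15 higher and 1 lower, beside 6.62% and 7.44% of all genes. Without CKO 1, 3 and 6, 3 of 14 were higher, as were 855 of all 12176 genes. Cell cycle genes were low, with 9 of 16 tested and 0 past the unadjusted threshold in either direction, also without CKO 1, 3 and 6, while 1 was lower after median-ratio scaling. The 3 with the smallest P were Mcm2, Birc5 and Top2a (limma adjusted P = 0.38, 0.514 and 0.523).

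Of the factors that work upstream or beside the members, 16 were tested. Unadjusted, 4 were higher and 0 lower, beside 18.1% and 1.76% of all genes. As higher, 1 passed the adjusted threshold, which 2.02% of all genes passed. The one past the adjusted threshold was Tead4, a factor of muscle differentiation, at 0.199 ± 0.0742 FPKM in controls and 0.607 ± 0.266 FPKM in CKOs (SD, n = 6, log2 fold change 1.19, limma adjusted P = 0.0332, and 0.0778 after median-ratio scaling). Mef2c, whose protein reads MEF2 motifs such as the one printed for Myog, was 73.2 ± 7.15 and 104 ± 22.6 FPKM (SD, n = 6, limma adjusted P = 0.083). After median-ratio scaling 3 were higher and 3 lower, beside 6.62% and 7.44% of all genes. Without CKO 1, 3 and 6, 3 were higher and 0 lower, where 855 of all 12176 genes were higher and 156 lower. Of the 3 E proteins, the dimer partners, 1 was higher unadjusted and 0 adjusted, with 0 after median-ratio scaling or without CKO 1, 3 and 6, and Tcf3 and Tcf12 had log2 fold changes of 0.34 and 0.23 (limma adjusted P = 0.275 and 0.304).

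Inhibitors of the helix-loop-helix factors were read next. Of 12 tested, 3 were higher and 1 lower unadjusted, and Mdfic, a relative of the MyoD family inhibitor, was higher at the adjusted threshold, at 1.87 ± 0.426 FPKM in controls and 2.88 ± 0.184 FPKM in CKOs (SD, n = 6, limma adjusted P = 0.0366), but not after median-ratio scaling. In the deposited FPKM 18.1% of all genes were higher and 1.76% lower. After median-ratio scaling 1 inhibitor was higher and 2 were lower, beside 6.62% and 7.44% of all genes. The scaled median log2 fold change was 0.25 against 0.008 over all genes. Positive were 7 of the 12, as were 51.21% of all genes. Without CKO 1, 3 and 6, 2 of 11 were higher and 1 lower, where 855 of all 12176 genes were higher and 156 lower. Bhlhe40 had a log2 fold change of -0.43 (limma adjusted P = 0.234) and Id3, which sequesters E proteins, one of 0.50 (limma adjusted P = 0.236). Among 8 coactivators, 1 was higher and 1 lower unadjusted, also after median-ratio scaling. Without CKO 1, 3 and 6, 1 was higher and 0 lower. The shares of all genes beside these counts are those just given. Kat2b, an acetyltransferase that acts with Myod1, was 8.93 ± 0.634 FPKM in controls and 12.8 ± 2.01 FPKM in CKOs (SD, n = 6, limma adjusted P = 0.0369, and 0.168 after median-ratio scaling). Smarcd3, the chromatin remodeling subunit BAF60C, had a log2 fold change of -0.33 (limma adjusted P = 0.163, and 0.0226 after median-ratio scaling), and Ncoa2 one of 0.19 (limma adjusted P = 0.367).

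In the denervation response, which includes known partners of Myog, 5 of 9 genes tested were higher and 1 lower unadjusted, and 0 passed the adjusted threshold, beside 18.1% and 1.76% of all genes unadjusted. After median-ratio scaling 3 were higher and 1 lower, beside 6.62% and 7.44% of all genes. Without CKO 1, 3 and 6, 1 was higher and 1 lower, where 855 of all 12176 genes were higher and 156 lower. The lower gene was Dach2, a repressor of Myog, at 0.451 ± 0.220 FPKM in controls and 0.148 ± 0.0920 FPKM in CKOs (SD, n = 6, log2 fold change -1.14, limma adjusted P = 0.0639). It passed after median-ratio scaling (limma adjusted P = 0.0496). Ncam1 was 0.833 ± 0.144 and 1.82 ± 0.879 FPKM (SD, n = 6, limma adjusted P = 0.0623) and Hdac9 0.852 ± 0.368 and 1.56 ± 0.503 FPKM (SD, n = 6, limma adjusted P = 0.107). Fbxo32 and Trim63, also on the list, had log2 fold changes of -0.02 and -0.33 (limma adjusted P = 0.978 and 0.477). The counts take no account of the direction known for each gene, and a denervation response was not tested.

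**Figure D4:**
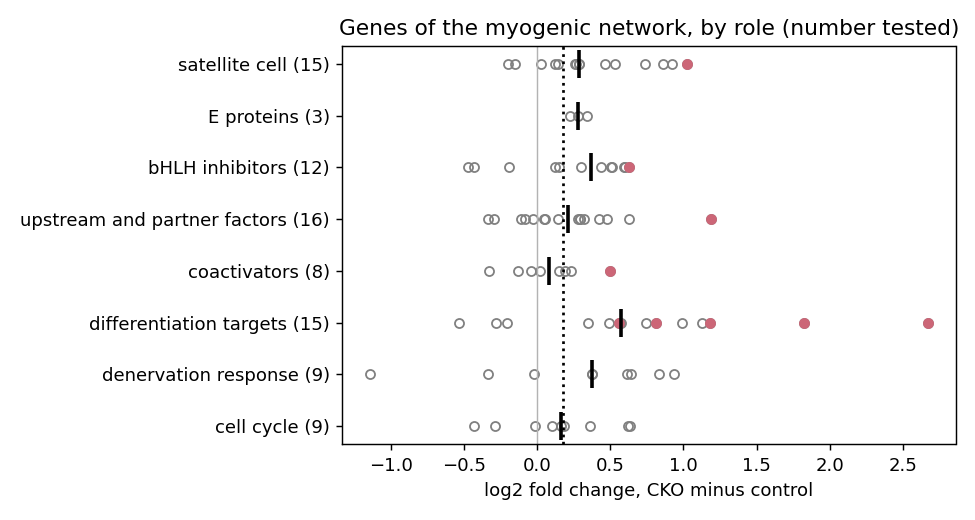
Log2 fold change, CKO minus control (horizontal axis), of each tested gene by its role beside the myogenic regulatory factors, with filled red points past an adjusted P of 0.05 and a black tick at the median of each list. The dotted line is the median of all genes, 0.18, and of the 8 lists drawn the differentiation targets have the highest median, 0.57.

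Markers of other cells in the muscle were read in the same mice. Endothelial genes summed to 24.4 to 35.7 FPKM in controls and 23.8 to 40.8 in CKOs, with 0 of 4 past the unadjusted threshold, and pericyte genes to 60.7 to 93.7 and 61.9 to 82.7, with 1 of 4 higher. Schwann cell genes had a median sum of 6.76 FPKM in controls and 8.55 in CKOs, with 2 of 4 higher unadjusted, and adipocyte genes summed to 0.385 to 1.06 and 0.639 to 2.02, with 1 of 2 higher. Mesenchymal genes summed to 174 to 663 FPKM in controls, with control 1 the highest, and 237 to 395 in CKOs, with 1 of 5 higher. Macrophage genes summed to 6.06 to 20.6 and 7.27 to 13.2 FPKM, with 0 of 5 past the threshold, and tenocyte genes to 7.59 to 20.9 and 4.45 to 13.5, with 0 of 3. After median-ratio scaling 1 mesenchymal gene was higher, and 0 endothelial, pericyte, Schwann cell, adipocyte, macrophage or tenocyte genes were. Lower were 1 pericyte and 1 tenocyte gene, where 6.62% of all genes were higher and 7.44% lower. Without CKO 1, 3 and 6, 0 genes of the 7 cell types were higher and 1 tenocyte gene was lower. Of all 12176 genes tested there, 855 were higher and 156 lower. In the deposited FPKM 18.1% of all genes were higher. The part of these cells in the levels of Pax7, Myf5 and Myog was not tested.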

How the data were processed

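Tibialis anterior RNA from 6 control and 6 Smyd1 CKO mice was sequenced after depletion of ribosomal RNA. The deposited FPKM were made by the authors, who trimmed adapters, aligned with bowtie2 and TopHat2 2.0.10 on mm9, removed multiply mapped reads and ran Cufflinks 2.1.1, versions and build per the submitters' processing notes. The annotation is not given in the sources used here. Of 23950 rows, 27 with a date as symbol were dropped. CKO and control were compared in limma 3.58.1 (R 4.3.3, intensity trend) on log2(FPKM + 0.1) for genes that reached 0.1 FPKM in 6 or more mice, with Benjamini-Hochberg adjustment over 12695 genes. Fold changes are on that scale and understate those of low genes. Labels do not state litters, and read totals are unknown, so depth is relative. Exact permutation tests were two-sided over 924 assignments, with a smallest P of 0.00216, and correlations used 100000 permutations within groups. The code was tested on simulated data. Alternatives were quantile normalization, median-ratio scaling, sample weights, no trend, a replicate block, leaving out each mouse, a pseudocount of 1, no filter and a filter at 1 FPKM. Leaving out CKO 1, 3 and 6, and scaling with the block, were added after seeing the data. The members and lists were chosen with earlier results of these data known. Named by rule were every member, the 3 genes of smallest P in each list and the 3 most like each member by r. Myh3, Rb1, Fbxo32, Trim63 and the fusion genes were picked after their values were seen. For fiber types and other cells mainly sums are given. A few genes picked by the rule are left out here.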

Additional observations from a re-analysis of the deposited data

Results flagged for a closer look

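Of 42 groups of 6 mice checked, 4 values lay far from the other mice of their group, with a gap over 0.625 of the range of the group, and chance gives about 1 in 20 groups. Myf6 over Myog in CKO 4 was 3.10 log2 units, against a CKO mean of 1.91 ± 0.61 (SD, n = 6). Myog over Myf5 in CKO 4 was 1.21 log2 units, against 2.20 ± 0.53 (SD, n = 6), and CKO 4 was the CKO with the least Myog. Myod1 over Pax7 in control 2 was 1.92 log2 units, against 3.91 ± 1.04 (SD, n = 6), in the control with the least Myod1 and the most Pax7. Myod1 over Pax7 in CKO 5 was 5.08 log2 units, against 3.58 ± 0.80 (SD, n = 6), in the CKO with the most Myod1 and the least Pax7.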

How the results depend on the processing

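Of 264 values recomputed under alternatives, 249 kept their direction and side of the threshold or moved little, and 0 reversed. No gene or ratio passed the adjusted threshold at the start, so this score could hardly record a loss of support. It also counts large changes in size as kept. With sample weights in limma, Myf5 (log2 fold change 1.035, adjusted P = 0.0303) and Myog (1.496, adjusted P = 0.015) passed the adjusted threshold, giving 2 genes in place of 0, while all genes higher at that threshold went from 257 to 1400, and the cause was not tested. Raising the pseudocount to 1 gave log2 fold changes of 0.42 for Myf5, 0.19 for Pax7 and 0.99 for Myog, and log2 ratio differences of -0.13 for Myf6 over Myf5 and -0.17 for Myod1 over Myf5, 0 of them past the adjusted threshold. With a filter at 1 FPKM, 1 gene was higher unadjusted, because Myf5 and Pax7 were not tested there. Leaving out 1 mouse at a time gave log2 fold changes of 0.88 to 1.255 for Myf5, 1.14 to 1.62 for Myog, 0.47 to 0.78 for Pax7, 0.05 to 0.53 for Myod1, 0.18 to 0.46 for Myf6 and 0.08 to 0.43 for Pax3. It left 2 to 3 genes higher unadjusted and 0 to 2 adjusted, the latter above 0 without control 1, control 3 or CKO 4, while the count over all genes ran from 88 without CKO 1 to 1075 without control 1. The log2 ratios, CKO minus control, ran from -1.295 to -0.90 for Myf6 over Myog, -0.95 to -0.63 for Myf6 over Myf5, -1.35 to -0.79 for Myod1 over Myog and -0.91 to -0.62 for Myod1 over Myf5, with 0 ratios past the adjusted threshold each time, and r of Myf5 and Myod1 ran from 0.55 to 0.78. Median-ratio scaling and leaving out CKO 1, 3 and 6 each took the satellite cell genes higher unadjusted from 5 to 3, and took the differentiation targets from 11 to 7 and to 5. The count over all genes went from 2300 to 841 and to 855.

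In a limma fit with a replicate block, the adjusted P was 0.0941 for Myf5 (log2 fold change 1.08), 0.0707 for Myog (1.36) and 0.268 for Pax7 (0.65), so 2 genes were higher unadjusted. Deviations of same-numbered mice correlated at -0.0861 to 0.164, and the own number was the best partner for 2 of 6, so the numbers were not taken to pair the mice. Depth limits Pax3, Pax7 and Myf5, which rest on few fragments.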
